A study of Mus musculus with 4 samples.

Results

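The keratins and the genes of the cornified envelope were described in lumbar spinal cord after nerve injury. They were taken by name, as the probes named Krt or Lce followed by a number, together with loricrin (Lor), involucrin (Ivl), filaggrin (Flg, Flg2), repetin (Rptn), hornerin (Hrnr), trichohyalin (Tchh), trichohyalin-like 1 (Tchhl1) and cornulin (Crnn). This gave 92 of 55681 probes and 73 of 34787 genes and named transcripts, of which 47 are keratins, 17 are late cornified envelope (Lce) genes and 9 are other envelope genes. Krt6a and Krt6b fall outside the name rule because of their last letter, and are given as context.

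Keratins are intermediate filament proteins that assemble as pairs of a type I and a type II chain. Simple epithelia, basal epidermis, upper epidermis and hair each use their own pairs, and Krt6, Krt16 and Krt17 are known for their induction in wounded skin. The cornified envelope is the cross-linked protein shell of the dead outer cells of the epidermis, and late cornified envelope proteins, loricrin and the fused S100 proteins of the filaggrin family are among its components.

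The samples were 4 male ICR mice of 8 weeks, an outbred stock with no engineered allele named in the labels. The SNL group (spinal nerve ligation) was 2 mice with a tight thread around the L5 nerve, and the sham group was 2 mice whose nerve was exposed only. All were perfused with saline at day 10, and RNA of the L4 to L5 cord was labelled with Cy3 and hybridised to 1-colour Agilent arrays, 1 mouse per array. No label says which side of the cord was taken. SNL of this nerve is a model of neuropathic pain. Values below are log2 signals relative to the 75th percentile of the same array, so that a negative value is a spot dimmer than that percentile, and changes are SNL minus sham.

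The arrays correlated at 0.988 within SNL and 0.991 within sham, and at 0.982 to 0.984 between the groups. Spots well above background made up 74.9% and 78.1% on the SNL arrays, against 82.1% and 81.9% on the sham arrays, and no spot was saturated. The tissue label was borne out by 6 cord markers, all measured, with a median change of 0.09. Atf3, a transcription factor induced by axon injury, was 2.74 and 2.60 in SNL mice, against -2.54 and -2.55 in sham mice.

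Of the 73 genes, 53 were well above background on at least 2 arrays and entered the limma fit of 29305 genes. Of the other 20, 14 were above background on no array and 6 on 1 array. SNL values from these arrays were already known when the genes were chosen, so the contrast describes them and supports nothing further. At a limma adjusted p under 0.05, 2 genes rose, Krt16 and Tchhl1, and 0 fell. Krt16 was above background in the SNL mice only and entered the fit through them, and with detection required on all 4 arrays Tchhl1 alone was called. Over all genes 0.16% were called higher and 0.0102% lower. At an unadjusted p under 0.05, 9 genes were higher and 3 lower, against 6.67% and 5.48% of all genes. A change of at least 2-fold at an unadjusted p under 0.05 was fitted for 7 genes that were higher and 1 that was lower, against 1.91% and 0.706% of all genes. The lower one, Krt82, was not above background in SNL mice, so the size of its difference was not measured. Of the 53 genes, 42 were within 0.5 log2 units of no change, and the median was 0.12, against 0.03 over all genes. Both SNL mice lay above both sham mice for 16 genes and below them for 8, against 25.2% and 21.0% of all genes, and the groups overlapped for the other 29. With 2 mice a group, an exact permutation test cannot go below p = 0.333.

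**Figure D1:**
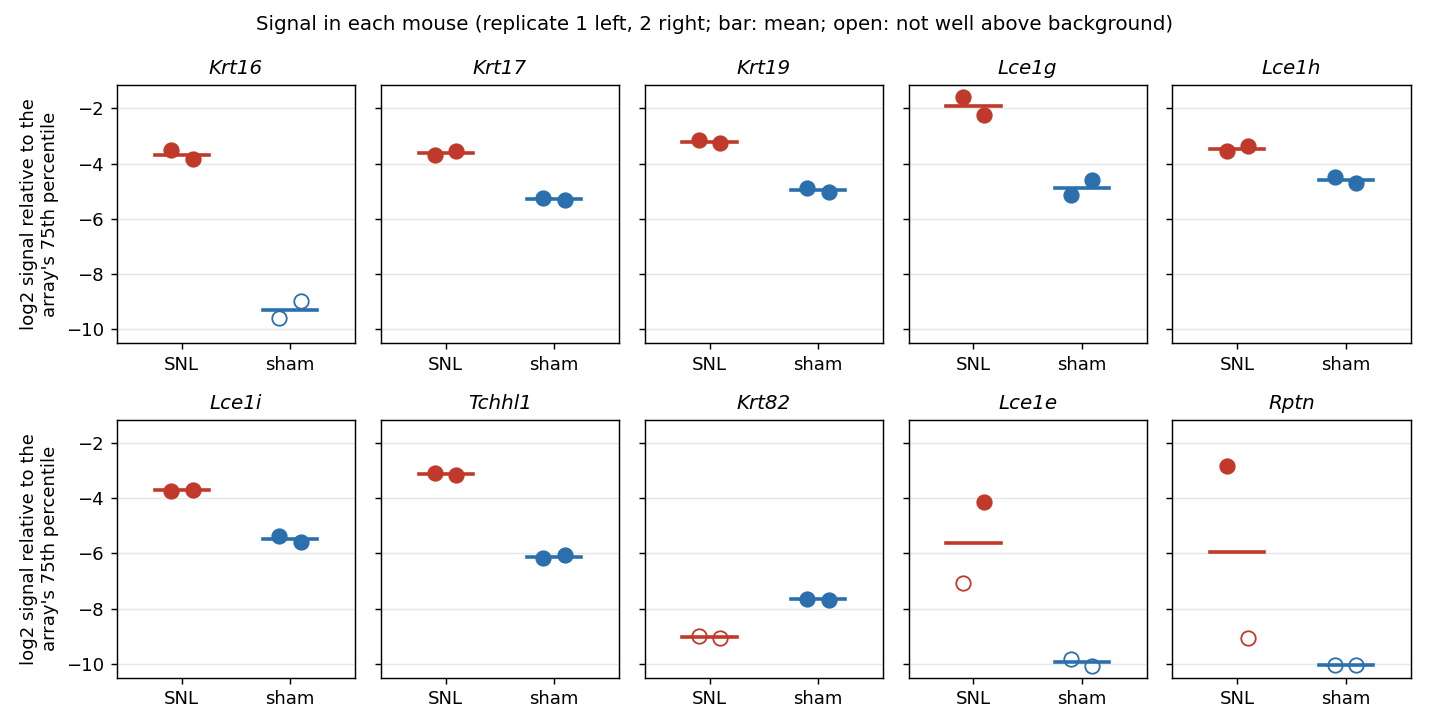
Normalised log2 signal of 10 genes in the 4 mice, 1 point per mouse, SNL left of sham, with a bar at each mean and open points for arrays not well above background. Krt16 at -3.52 and -3.83 in SNL mice stands far from the open points at -9.59 and -9.00 in sham mice, and Rptn has a single filled point, at -2.82 in 1 SNL mouse.

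Of the keratins of wounded skin, Krt16 alone passed the test, and it entered the fit through the SNL mice only. Krt16, a type I keratin induced at wound edges, was -3.52 and -3.83 in SNL mice, against -9.59 and -9.00 in sham mice. Both SNL mice were bright, and neither sham mouse was well above background. Krt16 was therefore at least 19.2-fold higher in SNL, where a dim array was given the lowest signal among its probes well above background, and the limma adjusted p was 0.0483. Taking that lowest signal over single spots, as was done first, gave at least 18.1-fold. The change to probes came after an earlier bound on these data had been seen. A difference fitted against the dim sham values, 5.62 on the log2 scale and 3.55 under normexp background correction, is not a measured size. The adjusted p of Krt16 rests on the same dim values. Krt17, the other injury keratin of the rule, was -3.69 and -3.55 in SNL mice, against -5.24 and -5.31 in sham mice. Its difference of 1.65 ± 0.11 (SE) is 3.14-fold, with no overlap, and its limma adjusted p of 0.0678 missed the threshold. Krt6b, a type II injury keratin, was -5.21 and -4.55 in SNL mice, against -5.68 and -5.59 in sham mice, a difference of 0.75 ± 0.26 (SE, limma adjusted p = 0.411). Krt6a did not enter the fit. Leaving out 1 mouse put no gene of the whole array under the threshold, so the loss of both calls then says nothing particular to them. The limma adjusted p was 0.121 to 0.477 for Krt16 and 0.109 to 0.477 for Tchhl1, with fitted differences of 5.32 to 5.91 and 2.95 to 3.06.

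Simple epithelial keratins did not move together. Krt19, a small type I keratin of simple epithelia, was -3.16 and -3.26 in SNL mice, against -4.88 and -5.03 in sham mice. The groups lay apart by 1.75 ± 0.11 (SE), or 3.36-fold, with a limma adjusted p of 0.0674. Krt8, the usual type II partner of Krt18, was -5.06 and -5.00 in SNL mice, against -4.25 and -4.44 in sham mice. Both SNL mice were lower, by -0.68 ± 0.11 (SE, limma adjusted p = 0.192). A second Krt8 probe gave 0.45 but was above background on no array, so that size was not measured. Krt18 was -3.61 and -3.44 in SNL mice, against -3.78 and -3.29 in sham mice, and its groups overlapped. Krt7, of glandular and ductal epithelia, was -3.11 and -1.99 in SNL mice, against -2.82 and -2.41 in sham mice, and overlapped too. Krt20, known from gut epithelium, was -4.98 and -5.16 in SNL mice, against -5.52 and -5.42 in sham mice, a difference of 0.40 ± 0.12 (SE, limma adjusted p = 0.352). Krt23 was above background on 1 array of each group, at -6.23 and -7.28 in SNL mice, against -7.74 and -7.90 in sham mice.

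Krt19, Krt16 and Krt17 are members of the type I keratin cluster on chromosome 11. In the mm9 build named in the file headers, their probes lie at 100002392 to 100002451, 100107408 to 100107467 and 100117535 to 100117594. Krt16 and Krt17 are neighbours in the order of the measured keratins there. Krt15, a type I keratin of basal cells in the same cluster, was lower in both SNL mice.

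**Figure D2:**
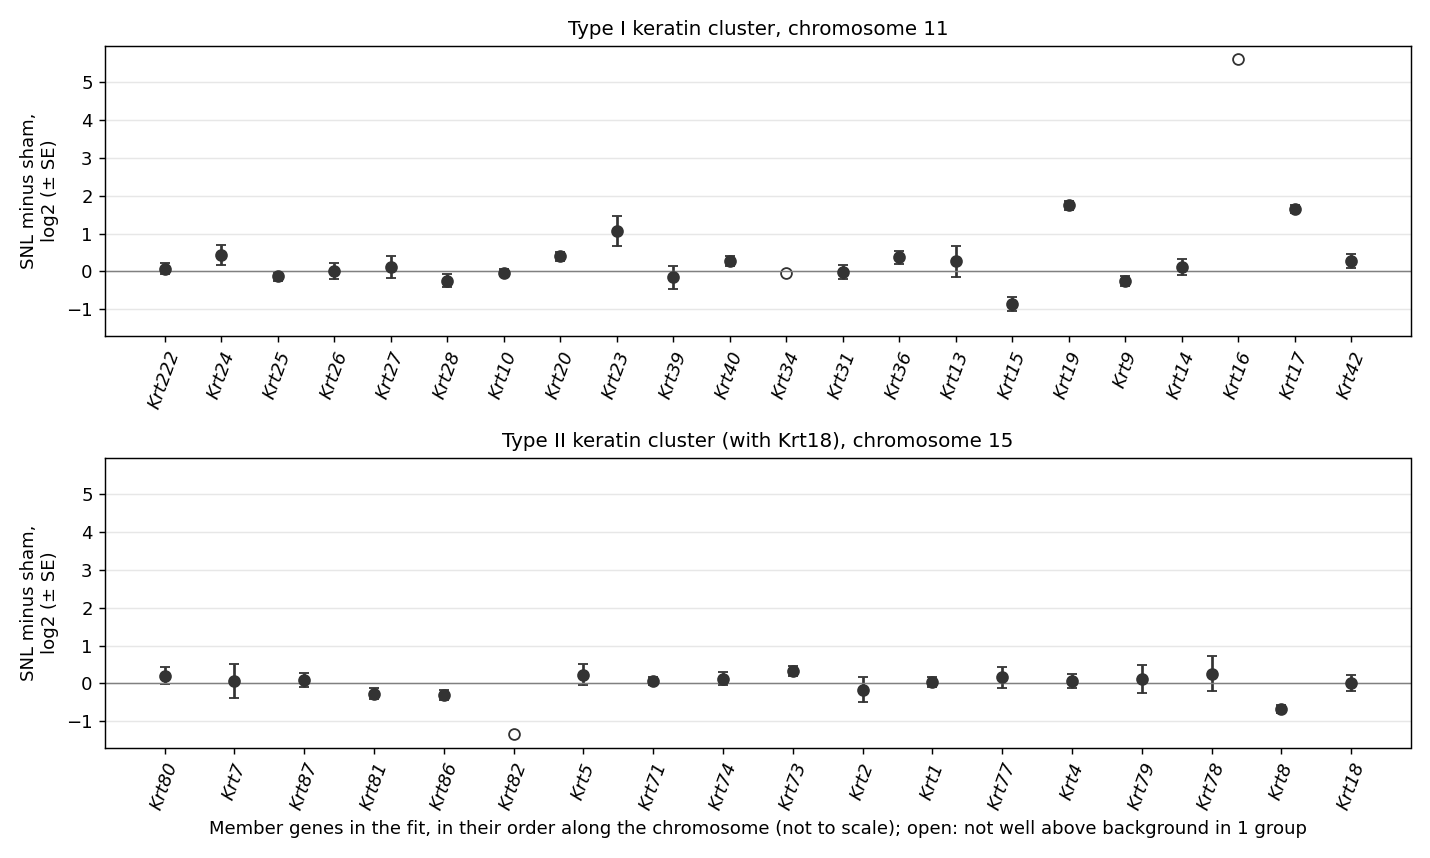
Change in log2 signal, SNL minus sham, of the keratins in their order along the 2 keratin clusters, with SE bars and open points for genes not above background in 1 group. Krt19 and Krt17 lie at 1.75 and 1.65, and Krt16 is an open point, for which only the bound of at least 19.2-fold holds.

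Basal and suprabasal keratins, the bulk of the epidermal filaments, held no gene that passed the test. Krt14 was -3.46 and -2.95 in SNL mice, against -3.31 and -3.33 in sham mice, and its type II partner Krt5 was -5.38 and -4.74 in SNL mice, against -5.15 and -5.42 in sham mice. Both overlapped. Krt15 was -5.12 and -4.69 in SNL mice, against -3.98 and -4.11 in sham mice, a difference of -0.86 ± 0.19 (SE, limma adjusted p = 0.262), and -0.52 under normexp correction. The suprabasal pair overlapped as well. Krt1 was -0.68 and -0.53 in SNL mice, against -0.73 and -0.55 in sham mice. Krt10 was 0.13 and 0.19 in SNL mice, against 0.21 and 0.18 in sham mice. Krt2 (-2.73 and -1.87 in SNL mice, -2.16 and -2.11 in sham mice) and Krt80 (-6.11 and -5.56 in SNL mice, -6.02 and -6.06 in sham mice) did the same. The 8 suprabasal genes that entered the fit spanned -0.26 to 0.26.

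Hair and inner root sheath keratins were the largest class, with 21 genes, 17 of them in the fit, and a median change of 0.01. Krt82, a hair cuticle keratin, was -8.99 and -9.05 in SNL mice, against -7.64 and -7.68 in sham mice. Neither SNL mouse was well above background and both sham mice were, but the lowest measurable SNL signals, -6.89 and -7.01, lie above the sham values, so no fold is given. Krt85, also of hair, was 2.11 and 2.03 in SNL mice, against 2.05 and 1.95 in sham mice, on a probe with no genome position given. Its other probes, placed on chromosome 15 and above background on every array, were far dimmer, with SNL means of -5.09 and -4.86. They gave differences of 0.26 and 0.35, the latter without overlap, so the brightness of Krt85 rests on 1 probe. Krt222, a keratin-like gene not placed in any class, was 4.06 and 3.79 in SNL mice, against 3.81 and 3.89 in sham mice. On the brightest probe, Krt85 and Krt222 both overlapped between the groups, and a second Krt222 probe gave -0.52. The 26 genes of any class not described singly ranged from -0.31 to 0.43 on the brightest probe of each. Of 11 genes of these families with more than 1 detected probe, 5 had probes of opposite sign. Krt13 was among them, at 0.27 on the brightest probe and -0.94 on the other.

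The Lce genes lie in the epidermal differentiation complex on chromosome 3. Only 7 of the 17 entered the fit, with a median change of 0.41, and 3 were at least 2-fold higher. Those 3, Lce1g, Lce1h and Lce1i, are neighbours, in a run of 5 genes from Lce1e to Lce1i whose probes span 92511365 to 92581328 on chromosome 3 (mm9). Lce1g was -1.57 and -2.22 in SNL mice, against -5.14 and -4.60 in sham mice. Both SNL mice were far brighter, by 2.97 ± 0.32 (SE), or 7.84-fold, at a limma adjusted p of 0.123. Lce1i was -3.72 and -3.69 in SNL mice, against -5.36 and -5.59 in sham mice, a difference of 1.77 ± 0.12 (SE), or 3.41-fold, at a limma adjusted p of 0.0732. A second Lce1i probe gave 3.13 ± 0.88 (SE), with sham values of -9.97 and -7.61. The first of these was not above background, so that size was not measured. That second probe matches the Lce1d probe at 46 of 60 bases and the Lce1g probe at 26 of 28 overlapping bases. Whether it reads their transcripts was not tested. Lce1h was -3.56 and -3.36 in SNL mice, against -4.48 and -4.69 in sham mice, a difference of 1.13 ± 0.14 (SE), or 2.18-fold, at a limma adjusted p of 0.142. For none of the 3 did the groups overlap, and none passed the adjusted threshold.

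The Lce1h and Lce1i probes are nearly the same sequence, which is why they are shown. They match at 56 of 60 bases and differ by A10G, G17A, A47C and G58A, counted from 1 at the 5′ end with the Lce1h base first, so each may read the other's transcript. Bases 1 to 30 follow, with the differing bases in capitals.
Lce1h: aagacttcaAacaaatGgtgcaggaggagc
Lce1i: aagacttcaGacaaatAgtgcaggaggagc

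At the end of the run, Lce1e was -7.08 and -4.13 in SNL mice, against -9.82 and -10.08 in sham mice, and only the second SNL mouse was well above background. Lce1f was -7.81 and -8.54 in SNL mice, against -9.60 and -9.88 in sham mice, none of them above background. Values of that kind carry an offset: of 19 probes of these families above background on no array, 18 had a higher mean in SNL, with a median difference of 0.89. Outside the run Lce1a2 was -0.14 and 0.20 in SNL mice, against -0.50 and -0.26 in sham mice, a difference of 0.41 ± 0.18 (SE, limma adjusted p = 0.485). A second Lce1a2 probe, also measured on all arrays, gave -0.05 with overlapping groups. Every Lce3 gene was outside the fit.

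**Figure D3:**
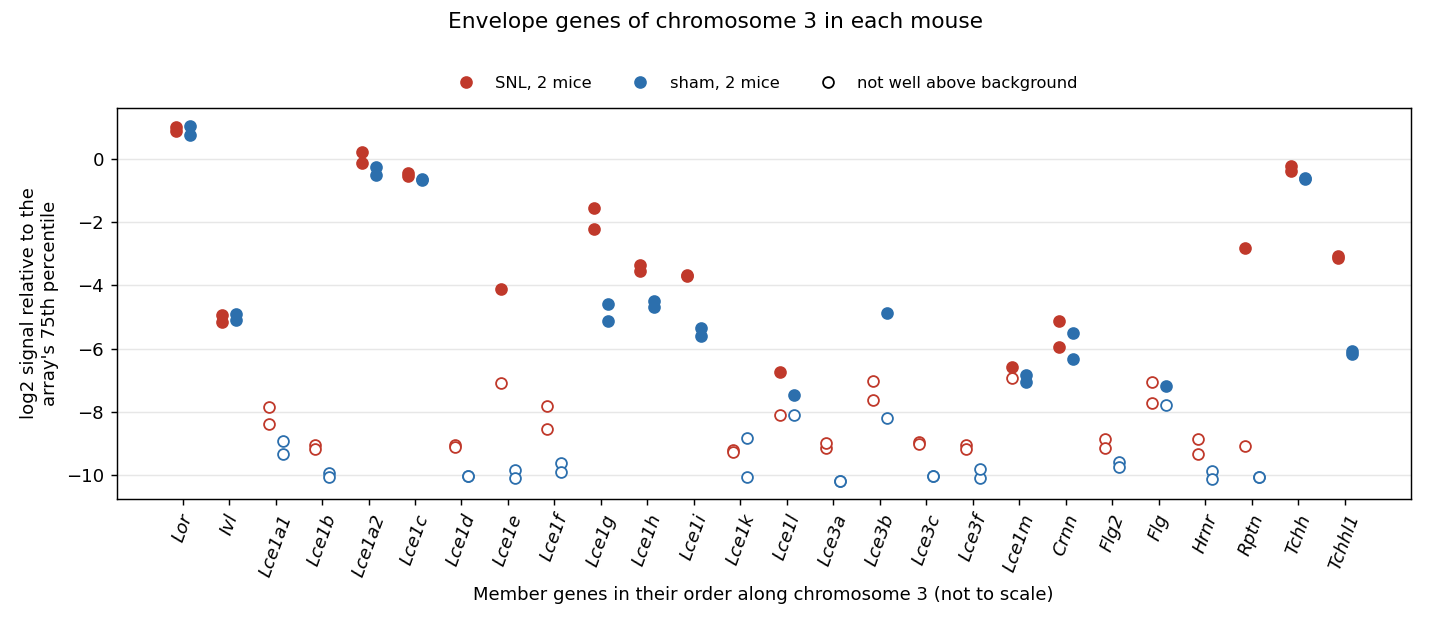
Log2 signals of the chromosome 3 genes in map order, SNL and sham mice as separate points, with filled and open marks for arrays above and not above background. Lce1g, Lce1h, Lce1i and Tchhl1 are filled in all 4 mice, with SNL above sham.

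The promoters of these 3 neighbours and of Tchhl1 are shown because these genes hold the largest fully measured differences of these families on chromosome 3, of which Tchhl1 alone passed the test. They run from 250 bases before to 50 after the start (RefSeq, GRCm38.p6), and 58 of the 73 genes had one in the table, those of Krt16, Krt17 and Krt19 not among them. Lce1g is at chr3:92752289-92752588, Lce1h at chr3:92765016-92765315 and Lce1i at chr3:92778850-92779149, all on the minus strand, and Tchhl1 is at chr3:93468504-93468803 on the plus strand. Capitals mark ATAAAAGGAC in the Lce genes and a match to TGANTCA, the core letters bound by AP-1, in Tchhl1.
Lce1g: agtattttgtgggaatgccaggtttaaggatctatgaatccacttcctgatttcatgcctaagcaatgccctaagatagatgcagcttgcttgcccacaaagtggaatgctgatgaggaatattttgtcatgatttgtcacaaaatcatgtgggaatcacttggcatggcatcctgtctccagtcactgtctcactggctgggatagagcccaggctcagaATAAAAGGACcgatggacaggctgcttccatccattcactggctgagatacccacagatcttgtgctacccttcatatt
Lce1h: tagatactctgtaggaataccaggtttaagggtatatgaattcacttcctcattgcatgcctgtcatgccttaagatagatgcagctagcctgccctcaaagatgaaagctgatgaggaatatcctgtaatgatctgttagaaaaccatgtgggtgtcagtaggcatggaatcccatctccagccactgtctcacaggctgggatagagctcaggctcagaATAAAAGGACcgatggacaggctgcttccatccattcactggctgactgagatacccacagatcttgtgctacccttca
Lce1i: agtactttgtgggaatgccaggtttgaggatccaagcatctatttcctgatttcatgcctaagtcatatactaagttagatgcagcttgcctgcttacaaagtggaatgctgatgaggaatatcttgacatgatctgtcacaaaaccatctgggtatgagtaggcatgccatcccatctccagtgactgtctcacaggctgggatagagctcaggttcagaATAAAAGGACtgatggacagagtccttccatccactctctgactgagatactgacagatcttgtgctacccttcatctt
Tchhl1: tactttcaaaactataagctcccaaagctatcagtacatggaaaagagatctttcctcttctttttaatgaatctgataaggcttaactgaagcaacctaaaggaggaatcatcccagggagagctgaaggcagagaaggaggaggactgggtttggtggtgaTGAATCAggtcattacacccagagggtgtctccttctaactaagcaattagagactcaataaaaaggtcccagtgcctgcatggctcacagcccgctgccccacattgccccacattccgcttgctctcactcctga

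ATAAAAGGAC, chosen after the promoters were read, was in 7 of 16 Lce promoters and in 0.113% of 32851 promoters. Among the 7 were Lce1c and Lce1l, whose changes were 0.16 and 0.36. Aligned end to end, Lce1e, Lce1g, Lce1h and Lce1i were 79.7 to 86.3% identical to each other in this window, and 66.0 to 78.0% identical to Lce1a1, Lce1a2, Lce1b, Lce1c and Lce1d. The highest value of the second range, 78.0%, was that of Lce1c with Lce1h, and Lce1c changed by 0.16. Lce1e, Lce1g, Lce1h and Lce1i were grouped as members of the run, with their SNL values known. Whether promoter identity goes with the change was not tested. TGANTCA, searched on both strands, was in 7 of the 9 other envelope promoters (Lor, Ivl, Crnn, Flg, Flg2, Rptn and Tchhl1), in 0 of 16 Lce promoters and in 7.81% of all promoters. A match in letters is a description and not a binding site.

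Among the other envelope genes Tchhl1, a fused S100 protein related to trichohyalin, was -3.07 and -3.14 in SNL mice, against -6.17 and -6.06 in sham mice. It was above background in all 4 mice, and rose by 3.01 ± 0.10 (SE), or 8.03-fold, with a limma adjusted p of 0.0376. Under normexp correction the Tchhl1 difference was smaller, at 2.35. Tchh, which hardens the inner root sheath, was -0.22 and -0.39 in SNL mice, against -0.65 and -0.60 in sham mice, a difference of 0.32 ± 0.11 (SE, limma adjusted p = 0.402). Rptn was -2.82 and -9.08 in SNL mice, against -10.05 and -10.05 in sham mice. A single SNL mouse carried that signal, and the gene stayed outside the fit. The bulk components of the envelope overlapped. Lor was 0.88 and 1.00 in SNL mice, against 0.75 and 1.04 in sham mice. Ivl was -5.16 and -4.95 in SNL mice, against -5.10 and -4.89 in sham mice. Crnn was -5.94 and -5.11 in SNL mice, against -5.50 and -6.34 in sham mice. Flg was above background in 1 sham mouse, and Flg2 and Hrnr in none.

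**Figure D4:**
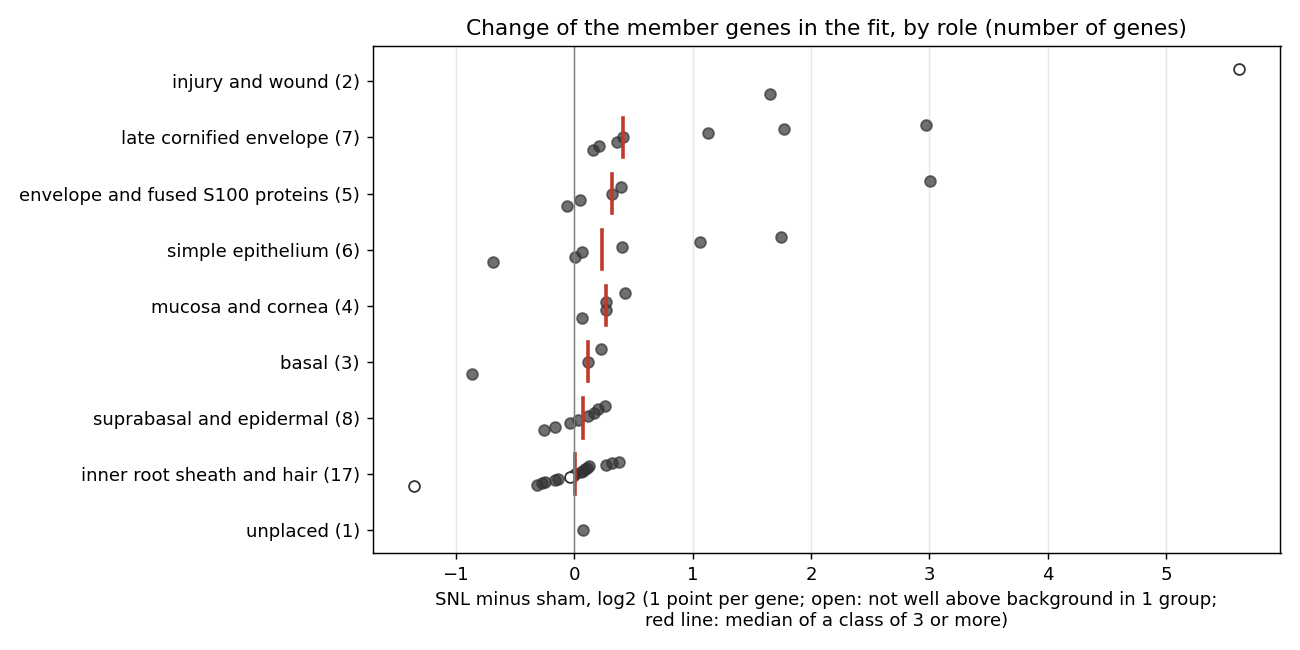
Change in log2 signal, SNL minus sham, of each gene in the fit, grouped by role, with open points for genes not above background in 1 group. Krt17 lies at 1.65, Krt16 is an open point with a bound only, and the hair keratins spread around a median of 0.01.

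The wider cornification programme was followed by lists of other genes. Of 14 enzymes that cross-link or process the envelope, 12 entered the fit and 0 were called by limma (1 higher and 0 lower at an unadjusted p under 0.05), with a median of 0.03. Klk7, a protease that sheds outer skin cells, was -4.47 and -4.82 in SNL mice, against -6.52 and -7.06 in sham mice, a difference of 2.15 ± 0.25 (SE, limma adjusted p = 0.141). Of 14 scaffold and desmosome genes, 11 entered and 0 were called (1 higher and 1 lower unadjusted), with a median of -0.14. Of 12 regulators of epidermal differentiation, 11 entered and 0 were called (3 higher and 0 lower unadjusted), with a median of 0.14. Fosl1, an AP-1 subunit, was -4.84 and -4.73 in SNL mice, against -5.79 and -5.97 in sham mice, or 2.14-fold (limma adjusted p = 0.122). All 6 keratin linkers entered and 0 were called (0 unadjusted), with a median of 0.08. Among keratin-associated genes of hair, 31 of 53 entered and 0 were called (4 higher and 1 lower unadjusted), with a median of 0.12. The small proline-rich genes, envelope precursors of the same complex, are set beside them: 8 of 15 entered, 3 rose (Sprr1b, Sprr2f and Sprr2j-ps) and 0 fell. All 3 were above background in SNL mice only and entered the fit through them, so no median is given.

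Keratinocyte markers, none of them a keratin and several also in the lists above, were read as a check on skin cells. All 12 were measured, 0 were called by limma (1 higher and 2 lower at an unadjusted p under 0.05), and the median change was 0.09. Their summed linear signal was 16.6 and 17.8 in SNL mice, against 14.7 and 16.7 in sham mice. Most of that sum is Trp63 alone, at a log2 signal of 3.71 and 3.83 in SNL mice, against 3.53 and 3.74 in sham mice, so the sum says little about the other markers. The 1 higher was Perp (0.43), and the 2 lower were Ly6d (-0.50) and Pkp1 (-0.78). Krtdap, a defining keratinocyte gene, was -6.94 and -6.58 in SNL mice, against -7.07 and -7.68 in sham mice. It was above background in 1 SNL mouse and in both sham mice, and its difference was 0.62 ± 0.28 (SE, limma adjusted p = 0.495). General epithelial markers (7 of 8 measured, median 0.14), ependymal markers (6, median 0.12), meningeal markers (8, median 0.18) and sensory ganglion markers (6 of 8, median 0.16) held 0 calls, and 1 general epithelial marker was higher unadjusted. Of 5 motor neuron markers, 1 fell (Mnx1, above background in no SNL mouse), 4 were lower and 0 higher unadjusted, and the median was -0.73. Schwann cell markers held 0 calls and had a median of 1.07, with a summed signal of 40.5 and 30.4 in SNL mice, against 34.0 and 21.9 in sham mice, and their part in these results was not tested. In bulk tissue, more cells of a type and more RNA per cell cannot be told apart.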

How the data were processed

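Per the labels' protocols, RNA of 4 separate mice was hybridised to 1 array each. Spot intensity values were deposited as Agilent Feature Extraction output, whose version is 10.7.3.1 in the deposited headers, and 10.7.1.1 in the submitters' processing notes. Dim spots carry a surrogate value. The authors also deposited a table of log2 values, used as an alternative.

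Each processed signal was put on the log2 scale, and the 75th percentile of its array, taken across 59305 spots that are not controls, was subtracted. Outlier spots were left out and spots of a probe averaged. A probe entered if well above background on at least 2 arrays, and the brightest probe stood for its gene. Symbols came from a RefSeq table for 26762 probes by accession, 3819 by symbol and 639 by synonym, and 24461 probes kept the name in the file. SNL and sham were compared with limma 3.58.1 in R 4.3.3 (lmFit, eBayes), adjusted by Benjamini-Hochberg over 29305 genes and tested on simulated data. The number of arrays limits the precision; the median SE was 0.13.

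The floor behind a fold bound was first taken over spots. It was changed to probes after a bound from an earlier report on these data had been seen, and both bounds are given.

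The genes, lists and naming rule were chosen with earlier results of these data known. The rule named every called or 2-fold gene, keratins of set roles, the 5 genes brightest on average and the envelope genes. Same-numbered mice did not deviate together (correlation -0.03), and the main fit did not pair them. With 2 mice a group this cannot exclude pairing, so a fit that pairs them was run as an alternative.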

Additional observations from a re-analysis of the deposited data

How the results depend on the processing

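The 8 genes changed at least 2-fold kept their direction under each alternative in which they were measured, but the calls did not hold under all of them. The called genes of these families numbered 2 (50 over all genes). They stayed at 2 with the mean of probes (51) and with every probe tested on its own (68 probes). They numbered 0 (11) with quantile normalization, 0 (0) with the 75th percentile taken over probes detected on all arrays, and 0 (0) when detection on 1 array was enough. They numbered 3 (132) with normexp, 1 (52) when detection on all 4 arrays was required, 6 (539) with a variance trend and robust estimation, and 10 (1219) with no filter on dim probes. The replicate block, a fit pairing same-numbered mice, left 0 (0), with 9 genes at least 2-fold. Leaving out 1 mouse left 0 to 0 called (0 to 0 over all genes), 8 to 10 genes at least 2-fold, and a median of -0.069 to 0.31, below 0 without SNL replicate 2. The 8 genes at least 2-fold became 7 with normexp (Krt82 lost) and 6 with detection on all 4 arrays (Krt16 and Krt82 lost). With no filter, 13 genes were at least 2-fold, and the added probes include ones above background on no array. The median of 0.12 became 0.016 with quantile normalization, 0.23 with normexp, 0.091 with the detected-probe percentile and 0.23 with no filter. Of all 2-fold changes 73.0% were higher, with a range from 56.3% without SNL replicate 2 and 65.7% with quantile normalization to 84.1% with detection on all 4 arrays and 84.4% with normexp. The authors' deposited table gave 2 calls among these genes. A slide or scan block was not run, as there was 1 slide and 1 scan. With 2 mice a group, a call missed here does not show that a gene did not differ. The cause of these shifts was not tested.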
